A study of Mus musculus with 6 samples.

Results

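Collagens are the trimeric matrix proteins whose chains are encoded by the genes named Col, a type number, the letter a and a chain number. The genes described here are all the protein-coding mouse genes with a symbol of that form, without Col17a1, a hemidesmosome collagen. There are 43 of them among the 55450 genes of the table. They fall into 11 fibrillar genes (types I, II, III, V, XI, XXIV and XXVII), 6 basement membrane genes (type IV) and 26 others. The others hold the beaded filament chains of type VI, the fibril-associated collagens, the short-chain network formers, the multiplexins, the anchoring fibril chain of type VII, the transmembrane collagens and 2 genes of none of these kinds.

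The samples were tumours grown under the skin of the right flank of C57BL/6 mice from MTE-Ras, a cancer line of mouse tracheal epithelium that carries an oncogenic RAS mutation. Phosphate-buffered saline (PBS) was given into the lesion in 3 mice, and PV-10, a solution of rose bengal, in 3 other mice. Each tumour was a separate mouse, and the labels give no dose, no interval between injection and collection, and no age or sex. The whole tumour was sequenced as total RNA, so the RNA of the cancer cells and of the host's stroma, vessels and leukocytes was read together.

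Collagen chains wind together into a triple helix, which needs glycine at every 3rd residue because only glycine fits the helix axis. Most fibrillar collagens keep that repeat without a break over a long stretch. Fibrillar collagens are secreted as procollagens, trimmed and packed side by side into fibrils, mostly by fibroblasts. Type IV collagen has many breaks in the repeat and joins end to end into the sheet that underlies epithelium and surrounds vessels, where laminins, nidogens and perlecan bind to it. In a tumour, fibrillar collagens make up most of the scar-like stroma, and the type IV network is a product of endothelial, epithelial and mesenchymal cells alike.

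The difference between the classes can be read in the coding sequence, since every glycine codon starts with GG. The 90 bases below are from the coding strand of 4 abundant chains, with the first 2 bases of every glycine codon in capitals. For each gene the protein-coding Gencode transcript with the longest coding sequence was taken. Codons are counted from the start codon. The stretches of Col1a1 (codons 168 to 197) and Col3a1 (codons 164 to 193) begin where the long repeat begins. Those of Col4a1 (codons 148 to 177) and Col4a2 (codons 960 to 989) run across the end of the longest repeat of each gene.
Col1a1: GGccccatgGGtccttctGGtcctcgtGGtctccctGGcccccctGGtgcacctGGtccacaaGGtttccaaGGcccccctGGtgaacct
Col3a1: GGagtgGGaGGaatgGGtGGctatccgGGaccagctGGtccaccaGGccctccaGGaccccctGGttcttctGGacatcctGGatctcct
Col4a1: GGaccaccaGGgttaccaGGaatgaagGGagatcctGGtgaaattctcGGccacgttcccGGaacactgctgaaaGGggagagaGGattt
Col4a2: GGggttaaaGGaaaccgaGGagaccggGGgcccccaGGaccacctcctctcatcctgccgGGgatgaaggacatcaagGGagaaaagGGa

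In Col1a1 the capitals return every 9 bases across the stretch, and in Col3a1 they do so with extra glycine codons in between. In both type IV chains the spacing widens after the first 5 repeats. Counted over the whole coding sequence, the longest unbroken glycine repeat was 337 to 344 triplets in 9 of the 11 fibrillar genes. It was 216 triplets in Col24a1 and 217 in Col27a1, whose repeat was divided into 3 runs of at least 6 triplets, against 2 in the other 9. The 6 type IV genes had a longest repeat of 39 to 66 triplets, and their repeat was divided into 22 to 27 runs of at least 6 triplets.

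Total counts ran from 36730318 to 98717951 per tumour, and the shallowest libraries were PV-10 tumours 2 and 1. PV-10 tumour 3 stood apart from its group: its log2 CPM had a median correlation of 0.919 with the PBS tumours and 0.848 with the other PV-10 tumours. PV-10 tumours 1 and 2 had 35314 and 28343 genes with at least 1 count, against 19163 to 23068 in the other 4. Differences were tested on counts with edgeR's quasi-likelihood test and are given as log2 changes of PV-10 over PBS with a standard error (SE); a gene is called where its Benjamini-Hochberg adjusted p over all 22056 genes tested was under 0.05. Levels are given as TPM, the unit that corrects for gene length and library size. The scale matters here: the median log2 change over all genes tested was 0.30 in the count test and -0.21 on log2(TPM + 1), so a change is best read against those medians.

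Of the 43 genes, 39 had enough counts to be tested, and 5 were called, all lower in PV-10: Col4a1, Col4a4, Col6a3, Col18a1 and Col28a1. Over all genes tested, 5.09% were called, 1.92% as lower and 3.17% as higher. Within the classes the count was 2 of 5 type IV genes, 3 of 23 others and 0 of 11 fibrillar genes. At an unadjusted p under 0.05 there were 18 of the 39, 15 of them lower, beside 30.0% and 14.5% of all genes. DESeq2 called 16 of them, 13 lower and 3 higher, beside 29.6% of all genes, 8.41% lower and 21.2% higher. The limma-voom test called 7, 6 lower and 1 higher, beside 9.14% of all genes, 5.35% lower and 3.79% higher. With either of the other scalings of the counts edgeR called 9, 7 lower and 2 higher. Over all genes those scalings gave 11.5% called with DESeq2 size factors (4.84% lower, 6.66% higher) and 11.1% with library size alone (6.62% lower, 4.44% higher).

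The calls lie close under the threshold, since the lowest edgeR adjusted p of all genes tested was 0.0443. A gene called and a gene that just missed thus differ little in adjusted p. The calls also depend on which tumours are in the fit. Without PV-10 tumour 3, edgeR called 18 of 42 collagen genes tested, 12 lower and 6 higher, and 41.4% of all genes, 16.4% lower and 25.0% higher. Without any other single tumour it called 0 collagen genes and at most 5 genes in all. For the 5 called genes, the log2 change stayed between -2.21 and -1.38 whichever tumour was left out.

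The median log2 change was -1.64 over the 5 tested type IV genes, 0.00 over the fibrillar genes and -0.21 over the others, beside 0.30 over all genes tested. Among the 24 collagen genes with a mean of at least 1 TPM, 18 had a negative log2 change and the median was -1.02. Of all genes tested, 41.5% had a negative log2 change. The median was 0.06 over the protein-coding genes tested. Over the 10967 tested genes at least as abundant in CPM as the lowest of the 24 it was -0.31, the closer comparison for these 24. In those 24 the type IV median was -1.64 (5 genes), the median of the others -1.04 (11 genes) and the fibrillar median -0.12 (8 genes). On CPM, counts scaled to library size, the ranges of the groups did not overlap for 11 collagen genes that were lower in PV-10 and 3 that were higher, where 16.8% and 22.0% of all genes tested did the same. In TPM it was 14 collagen genes lower and 2 higher, beside 31.0% and 9.58% of all genes.

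**Figure D1:**
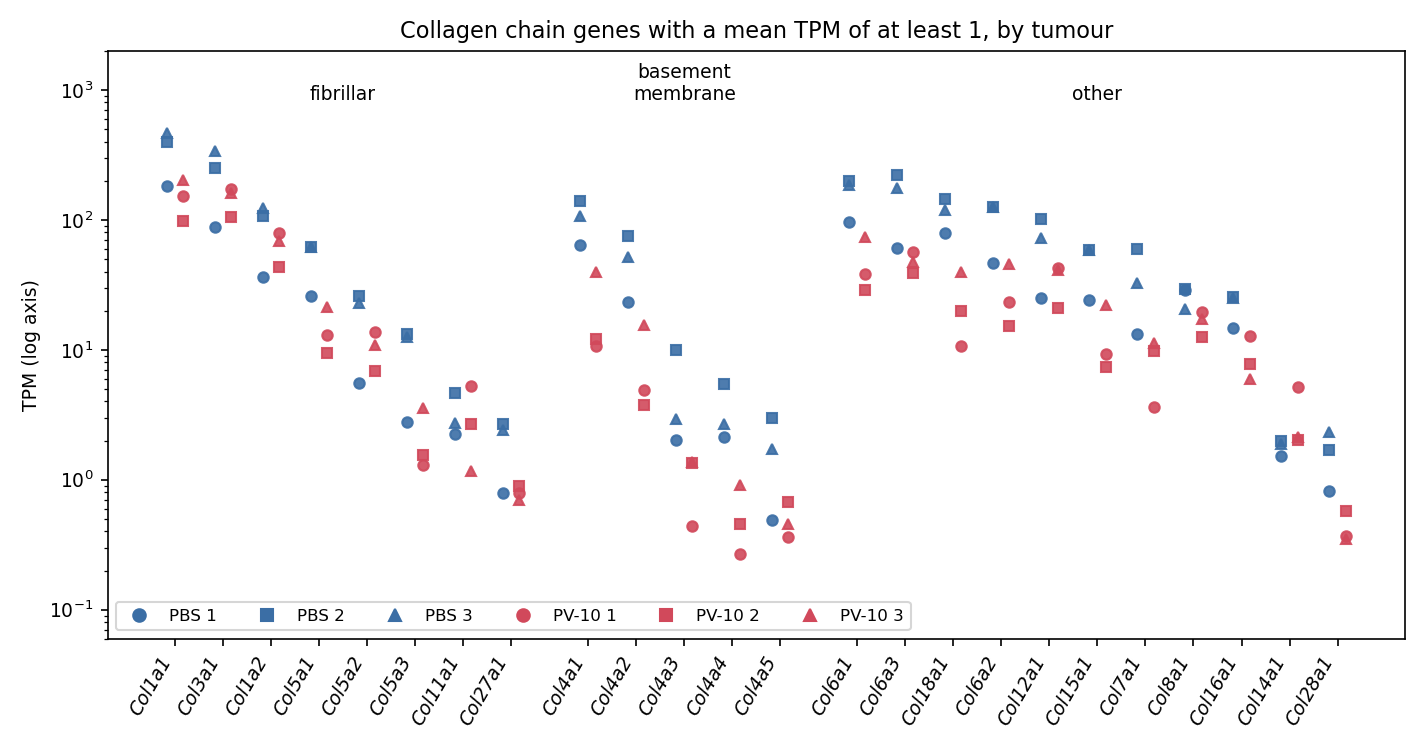
TPM (log axis) of the 24 collagen chain genes with a mean of at least 1 TPM, by class, with 1 point for each of the 3 PBS (blue) and 3 PV-10 (red) tumours. In every type IV gene PBS 2 and PBS 3 lie above all PV-10 points, PBS 1 is the lowest PBS point in 23 of the 24 genes, and Col14a1 is the gene whose PV-10 points all lie above the PBS points.

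Type IV chains are made as pairs from genes that lie head to head. Col4a1 and Col4a2 together encode the ubiquitous network, of 2 alpha1 chains and 1 alpha2 chain in each trimer. Both genes lie on chromosome 8 of GRCm38 (mm10), Col4a1 on the minus strand (11198423 to 11312826) and Col4a2 on the plus strand (11312805 to 11449287), and their annotated starts overlap by 22 bases. In RefSeq (GRCm38.p6) the starts are at the same bases, chr8:11312805-11312826, and the shared stretch is shown because both chains start from it, Col4a2 rightward from its first base and Col4a1 leftward from its last.
Col4a1 and Col4a2 starts, plus strand: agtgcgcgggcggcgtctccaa

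Col4a1 was at 64.3, 139.9 and 107 TPM in PBS tumours 1, 2 and 3, and at 10.6, 12.2 and 39.4 TPM in PV-10 tumours 1, 2 and 3. Col4a2 was at 23.4, 75.2 and 51.7 TPM in PBS and at 4.89, 3.76 and 15.4 TPM in PV-10. For both chains all PBS tumours were above all PV-10 tumours, and PV-10 tumour 3 was the highest of its group. Col4a1 fell (log2 change -1.63, SE 0.38, edgeR adjusted p = 0.0463). Col4a2, with -1.94 on the log2 scale (SE 0.50), just missed the threshold (edgeR adjusted p = 0.0531). The mean TPM in PBS was 5.0 times that in PV-10 for Col4a1 and 6.24 times for Col4a2. In whole tumours, fewer cells of a type and less RNA per cell cannot be told apart.

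The pair that encodes the alpha3 and alpha4 chains lies on chromosome 1, and its gene bodies are 71 bases apart. These chains form, with alpha5, the specialised network of kidney, lung and some other basement membranes. Col4a3 was at 2.03, 9.90 and 2.93 TPM in PBS and at 0.44, 1.35 and 1.36 TPM in PV-10 (log2 change -1.64, SE 0.55, edgeR adjusted p = 0.0832). Col4a4 (82448423 to 82586849, minus strand) was at 2.14, 5.46 and 2.67 TPM in PBS and at 0.27, 0.46 and 0.91 TPM in PV-10. Col4a4 fell (log2 change -1.89, SE 0.43, edgeR adjusted p = 0.0457). In both genes the groups did not overlap, and PBS tumour 2 was far above the other PBS tumours.

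The last pair, Col4a5 and Col4a6, lies on the X chromosome, 1308 bases apart. Col4a5 was at 0.49, 2.97 and 1.73 TPM in PBS and at 0.36, 0.67 and 0.46 TPM in PV-10, so that the groups overlapped in TPM. In CPM they did not (4.33, 12.0 and 10.2 against 3.42, 3.61 and 3.65); the log2 change was -1.31 (SE 0.40, adjusted p = 0.0697 by edgeR). Col4a6 was too low to test: it had 14 counts in PBS tumour 2, 2 in PV-10 tumour 1 and 67 in PV-10 tumour 2, and 0 in the rest. A count of 0 allows up to 3 counts, which is 0.0290 to 0.0821 CPM in these libraries; such limits cover counting error only, since the reads carry no molecular identifiers.

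Read together, the 5 type IV genes above the test's minimum had log2 changes from -1.94 to -1.31. All 5 were lower in every PV-10 tumour than in any PBS tumour on the CPM scale. Their summed level with Col4a6 was 92.3, 233 and 166 TPM in PBS (164 ± 70.6, SD, n = 3) and 16.6, 18.6 and 57.5 TPM in PV-10 (30.9 ± 23.1, SD, n = 3).

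In the count test the fibrillar genes showed no such common direction, with 5 negative and 6 positive log2 changes, whereas on log2(TPM + 1) 10 of the 11 were negative, with a median of -0.45. Their summed level was 344, 864 and 1026 TPM in PBS (745 ± 356, SD, n = 3) and 439.6, 269.6 and 468 TPM in PV-10 (393 ± 107, SD, n = 3), with PBS tumour 1 below 2 of the PV-10 tumours. Col1a1 and Col1a2 encode the chains of type I collagen, the main fibril of connective tissue, in a trimer of 2 alpha1 and 1 alpha2 chains. Col1a1, on chromosome 11 (94936224 to 94953042), was the most abundant collagen gene on average. It was at 182, 396 and 462 TPM in PBS and at 152, 98.4 and 201 TPM in PV-10 (log2 change -0.39, SE 0.35, edgeR adjusted p = 0.473). Col1a2, on chromosome 6 (4504814 to 4541544), was at 36.4, 108 and 124 TPM in PBS and at 79.3, 43.1 and 69.3 TPM in PV-10. In both genes the groups overlapped, with PBS tumour 1 as low as the PV-10 tumours. The log2 change of Col1a2 was 0.36 in the count test (SE 0.41, edgeR adjusted p = 0.584) but -0.34 on log2(TPM + 1), so it has no direction that both scales share.

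Col3a1, the single chain of type III collagen, which is laid down with type I in early scars, showed the same pattern as Col1a2. It was at 88.3, 249.98 and 337 TPM in PBS and at 173, 106 and 160 TPM in PV-10. Its log2 change was 0.61 in the count test (SE 0.45, edgeR adjusted p = 0.389) and -0.45 on log2(TPM + 1). The CPM values were 509, 873 and 1288 in PBS and 2192, 964 and 907 in PV-10, so PV-10 tumour 1 was the highest of all 6 in reads but not in TPM.

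Type V chains nucleate and thin the type I fibril. Col5a1 was at 25.9, 61.8 and 61.3 TPM in PBS and at 12.9, 9.52 and 21.2 TPM in PV-10 (log2 change -0.97, SE 0.34, edgeR adjusted p = 0.0934). It was the one fibrillar gene whose groups did not overlap, in CPM as in TPM. Its partner Col5a2 was at 5.52, 26.0 and 23.1 TPM in PBS and at 13.7, 6.87 and 10.8 TPM in PV-10, with a log2 change of 0.14 in the count test and -0.54 on log2(TPM + 1) (edgeR adjusted p = 0.858). Col5a3, a type V chain of narrower tissue range, was at 2.78, 13.3 and 12.5 TPM in PBS and at 1.29, 1.54 and 3.58 TPM in PV-10 (log2 change -1.41, SE 0.48, edgeR adjusted p = 0.0854). PV-10 tumour 3 was above PBS tumour 1 here. Col5a1 and Col5a3 were the 2 fibrillar genes with an unadjusted p under 0.05 and those DESeq2 called; limma-voom called 0.

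Col11a1, a fibril nucleator of cartilage that many stromal tumours also make, was at 2.26, 4.69 and 2.74 TPM in PBS and at 5.23, 2.69 and 1.16 TPM in PV-10, with no separation of the groups. Its log2 change was 0.65 in the count test and -0.16 on log2(TPM + 1). Col27a1 was at 0.79, 2.69 and 2.42 TPM in PBS and at 0.79, 0.90 and 0.70 TPM in PV-10 (log2 change -0.76, edgeR adjusted p = 0.219). Col24a1 stayed between 0.23 and 1.02 TPM in the 6 tumours. Col2a1, the collagen of cartilage, was at 0.05, 0.01 and 0 TPM in PBS and at 0.26, 0.34 and 0 TPM in PV-10 (edgeR adjusted p = 0.3), and Col11a2 did not pass 0.37 TPM in any tumour.

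**Figure D2:**
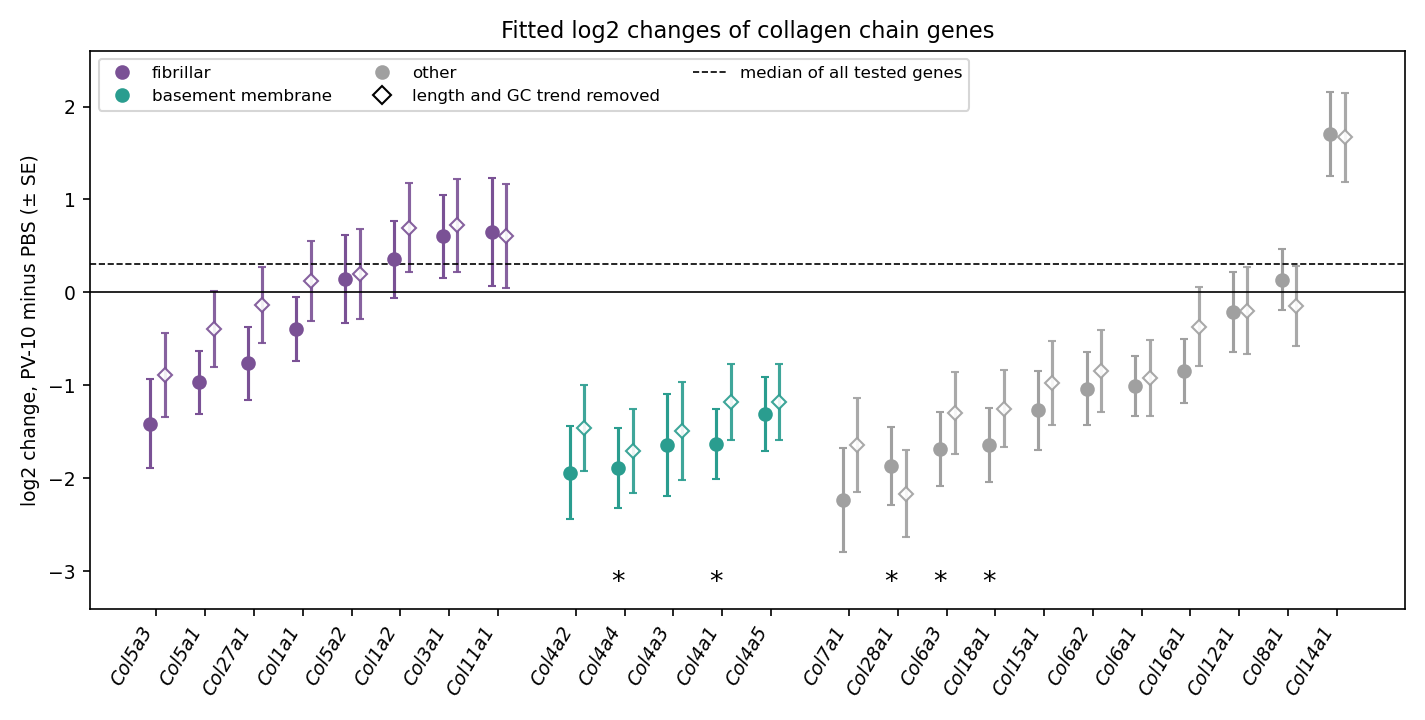
Log2 change of PV-10 over PBS with its SE (n = 3 tumours per group) for the 24 collagen chain genes with a mean of at least 1 TPM, from the edgeR count test (filled) and after a trend with transcript length and GC content was taken out (open diamonds). Asterisks mark the 5 called genes; all 5 type IV genes lie below -1, the fibrillar genes lie on both sides of 0, and on the TPM scale the positive values of Col1a2, Col3a1, Col5a2, Col11a1 and Col8a1 turn negative.

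Type VI collagen forms beaded microfilaments around cells from an alpha1 chain, an alpha2 chain and a longer partner such as alpha3, and Col6a1 and Col6a3 were the most abundant genes outside the fibrillar class. Col6a1 was at 96.0, 199 and 184 TPM in PBS and at 38.3, 28.6 and 73.3 TPM in PV-10 (log2 change -1.01, SE 0.33, edgeR adjusted p = 0.0786). Col6a2 was at 46.3, 125 and 125 TPM in PBS and at 23.5, 15.2 and 45.6 TPM in PV-10 (log2 change -1.04, SE 0.39, edgeR adjusted p = 0.111). The groups did not overlap in TPM for either gene; in CPM they overlapped for Col6a2, where PV-10 tumour 3 (288) was above PBS tumour 1 (255).

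Col6a3 encodes the long chain whose C-terminal fragment, endotrophin, is released from the filament. It lies on chromosome 1 (90765923 to 90843971, minus strand). Col6a3 was at 60.2, 222 and 176 TPM in PBS and at 56.5, 38.8 and 47.7 TPM in PV-10. Col6a3 fell (log2 change -1.68, SE 0.40, edgeR adjusted p = 0.0479). PBS tumour 1 was only just above PV-10 tumour 1 in TPM, and the PV-10 tumours lay close together. The other type VI chains, Col6a4, Col6a5 and Col6a6, did not pass 0.30 TPM in any tumour.

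Col18a1 and Col15a1 are the multiplexins, proteoglycan collagens that sit in or beside basement membranes and carry the endostatin-type fragment at their C-terminus. Col18a1, on chromosome 10 (77052178 to 77166548, minus strand), was at 79.9, 145 and 119 TPM in PBS and at 10.7, 19.8 and 39.4 TPM in PV-10. Col18a1 fell (log2 change -1.65, SE 0.40, edgeR adjusted p = 0.0492), and the groups were far apart. Col15a1 was at 23.9, 58.4 and 58.5 TPM in PBS and at 9.32, 7.35 and 22.3 TPM in PV-10 (log2 change -1.27, SE 0.42, edgeR adjusted p = 0.0824).

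Col7a1, the anchoring fibril that ties epithelial basement membrane to the tissue beneath, had the most negative log2 change among the collagen genes tested, -2.23 (SE 0.56, edgeR adjusted p = 0.0505). It was at 13.2, 59.9 and 32.4 TPM in PBS and at 3.66, 9.72 and 11.2 TPM in PV-10, with no overlap. Counted with Col7a1, Col15a1 and Col18a1, which also sit at basement membranes, the type IV group had 8 tested genes with a median log2 change of -1.64, and 3 of the 8 were called.

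The fibril-associated collagens decorate the surface of type I and type II fibrils. Col12a1 was at 25.1, 101 and 71.8 TPM in PBS and at 42.3, 21.0 and 41.0 TPM in PV-10 (log2 change -0.21, edgeR adjusted p = 0.765), and PBS tumour 1 lay among the PV-10 tumours. Col16a1 was at 14.6, 25.7 and 24.9 TPM in PBS and at 12.8, 7.71 and 5.99 TPM in PV-10 (log2 change -0.84, edgeR adjusted p = 0.134). For Col16a1 every PV-10 tumour was below every PBS tumour in TPM, with PV-10 tumour 3 the lowest of all, and the groups overlapped in CPM.

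Col14a1, which binds decorin on the fibril, went the other way. It was at 12.5, 11.4 and 11.5 CPM in PBS and at 69.2, 27.9 and 18.0 CPM in PV-10 (log2 change 1.70, SE 0.45, edgeR adjusted p = 0.0558). In TPM it was at 1.53, 1.98 and 1.88 in PBS and at 5.13, 2.02 and 2.12 in PV-10. No PV-10 tumour was below a PBS tumour on either scale, but in TPM the margin of PV-10 tumours 2 and 3 over the PBS tumours was small and only PV-10 tumour 1 stood out.

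Col8a1, a short-chain collagen of the subendothelial matrix, was at 28.6, 29.4 and 20.5 TPM in PBS and at 19.6, 12.4 and 17.2 TPM in PV-10. Those TPM ranges did not overlap, with a log2 change of -0.65 on log2(TPM + 1), yet in the count test the log2 change was 0.14 (edgeR adjusted p = 0.804) and the CPM ranges overlapped. Col28a1, a type VI-like chain known from peripheral nerve, was low but called. It lies on chromosome 6 (7997808 to 8192617, minus strand) and had 420, 687 and 1074 counts in PBS against 84, 85 and 204 in PV-10. Col28a1 fell (log2 change -1.87, SE 0.42, edgeR adjusted p = 0.0451), and its TPM was 0.82, 1.69 and 2.31 in PBS and 0.37, 0.57 and 0.35 in PV-10.

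The other 19 collagen genes had a mean under 1 TPM, and their summed level was 1.97 to 6.51 TPM in the 6 tumours. Of these, 15 were tested, 11 with a positive and 4 with a negative log2 change, and 0 were called by edgeR; 2 had an unadjusted p under 0.05, DESeq2 called 2 and limma-voom 1. Col22a1, known from tissue junctions such as that of muscle and tendon, had 0 counts in the 3 PBS tumours and 78, 29 and 79 counts in the PV-10 tumours (edgeR adjusted p = 0.0505). Its mean in PV-10 was at least 32.3-fold higher than the PBS mean that 3 counts per library would give. With 0 counts in PBS, Col22a1 passed the low-count filter through the PV-10 tumours alone, so its direction was fixed by that filter. Col6a6 was at 0.443, 0.227 and 0.290 CPM in PBS and at 4.60, 2.77 and 0.548 CPM in PV-10 (edgeR adjusted p = 0.0713). Col26a1 was at 0.07, 0.05 and 0.01 TPM in PBS and at 0.56, 0.48 and 0 TPM in PV-10, with overlap (edgeR adjusted p = 0.232). The transmembrane chains Col23a1 and Col13a1 were the highest of the 19, up to 1.92 and 1.32 TPM, both in PV-10 tumour 2, with overlapping groups. Col9a3, Col8a2, Col25a1, Col20a1 and Col10a1 reached at most 1.09, 0.53, 0.51, 0.35 and 0.21 TPM, and their groups overlapped as well. Col22a1, Col6a6 and Col26a1 were present as traces, and the 2 PV-10 tumours with the most genes detected, tumours 1 and 2, were also those where Col9a1 and Col19a1 had all their counts and Col2a1 its highest TPM. Col9a1, Col19a1 and Col9a2 had 0 counts in every PBS tumour and in PV-10 tumour 3 and at most 44 counts in the rest, with a highest level of 0.30, 0.07 and 0.07 TPM, and were not tested, like Col4a6 (at most 0.15 TPM). Whether the wider detection in those tumours bears on the low collagen genes was not tested.

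The makeup of the collagen transcripts shows the same contrast inside each tumour. Summed over the 43 genes, collagen chains were at 829, 2073 and 2011 TPM in PBS and at 682, 457 and 833 TPM in PV-10, so PV-10 tumour 3 was level with PBS tumour 1. Fibrillar genes held 41.5%, 41.7% and 51.0% of that sum in PBS and 64.5%, 59.0% and 56.2% in PV-10. Type IV genes held 11.1%, 11.3% and 8.26% in PBS and 2.43%, 4.07% and 6.90% in PV-10. The fibrillar share was higher in each PV-10 tumour than in any PBS tumour and the type IV share lower, and PV-10 tumour 3 was the nearest to PBS in both.

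The mean fibrillar share was 44.7% ± 5.42 in PBS and 59.9% ± 4.21 in PV-10 (SD, n = 3 each), a difference of 15.2 percentage points. Col1a1, Col1a2 and Col3a1 together held a mean of 39.7% of the collagen sum in PBS and 55.0% in PV-10. With them left out, the mean fibrillar share was 8.34% in PBS and 10.9% in PV-10, a difference of 2.56 points. With them left out the groups overlapped, at 7.20%, 8.34% and 9.47% in PBS and 12.6%, 10.7% and 9.42% in PV-10. A difference in points is bound to shrink with the share itself, so the 2.56 points alone do not show where the rise lay. As a share of the whole collagen sum, those 3 genes rose about as much as the fibrillar class did. With 3 tumours against 3, an exact two-sided permutation test cannot give a p below 0.1, so a share or a ratio that separates the groups can go no further than that description. The most abundant collagen gene in TPM was Col1a1 in the 3 PBS tumours and in PV-10 tumour 3, and Col3a1 in PV-10 tumours 1 and 2.

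**Figure D3:**
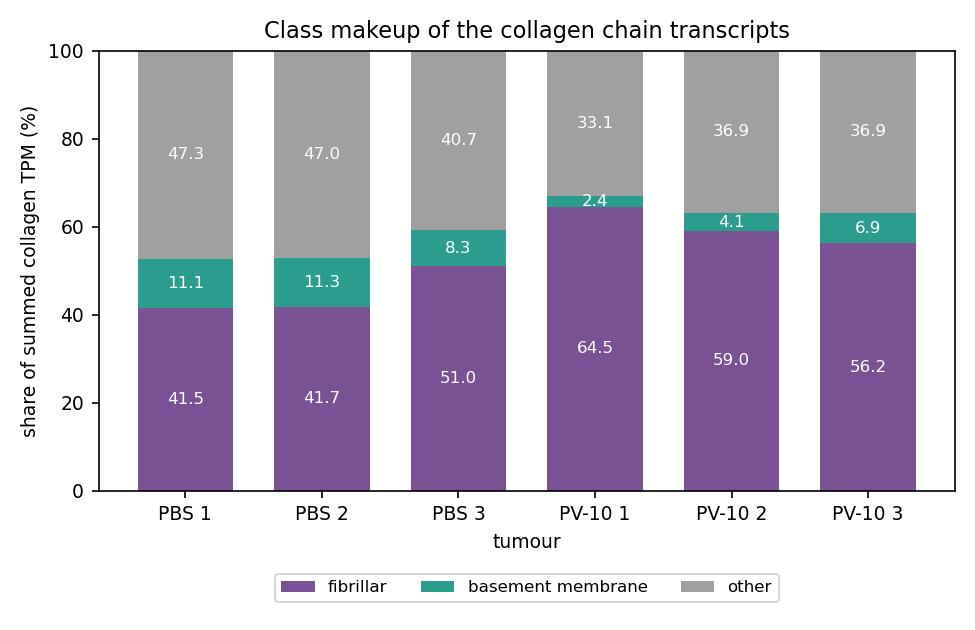
Share (%) of the summed TPM of the 43 collagen chain genes held by the fibrillar, basement membrane (type IV) and other classes, with 1 bar for each of the 6 tumours. The fibrillar share is 41.5% to 51.0% in the PBS tumours and 56.2% to 64.5% in the PV-10 tumours, and the type IV share is smallest in PV-10 tumour 1, at 2.43%.

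Ratios of 2 genes within a tumour do not depend on the scaling between libraries. A ratio of genes that differ in length or GC content can still carry a library's trend with them, described below. The ratio of Col1a1 to Col4a1 in TPM was 2.83, 2.83 and 4.32 in PBS and 14.3, 8.06 and 5.11 in PV-10. The ratio of Col1a2 to Col4a2 was 1.56, 1.43 and 2.39 in PBS and 16.2, 11.5 and 4.49 in PV-10. Both ratios of a type I to a type IV chain were higher in each PV-10 tumour than in any PBS tumour.

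Among partners of a trimer the ratios moved less. Col4a1 to Col4a2 was 2.75, 1.86 and 2.07 in PBS and 2.18, 3.24 and 2.55 in PV-10, with overlap, and Col6a1 to Col6a2 averaged 1.71 in both groups. Col1a1 to Col1a2 was 5.0, 3.67 and 3.73 in PBS and 1.92, 2.28 and 2.90 in PV-10, and Col5a1 to Col5a2 was 4.70, 2.37 and 2.66 in PBS and 0.944, 1.39 and 1.95 in PV-10. So the partner chains of types I and V did separate the groups, with less of the alpha1 gene relative to the alpha2 gene in PV-10. Col3a1 to Col1a1 was 0.486, 0.631 and 0.729 in PBS and 1.14, 1.08 and 0.794 in PV-10, also without overlap. GC content was 58.9% in Col1a1, 55.7% in Col1a2, 52.5% in Col3a1, 58.0% in Col5a1 and 49.6% in Col5a2. With the length and GC trend taken out, the log2 change was -0.39 for Col5a1 and 0.20 for Col5a2. The count test gave -0.97 and 0.14. For Col1a1, Col1a2 and Col3a1 it was 0.12, 0.70 and 0.72, against -0.39, 0.36 and 0.61 in the count test. The part of that trend in these ratios was not tested.

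**Figure D4:**
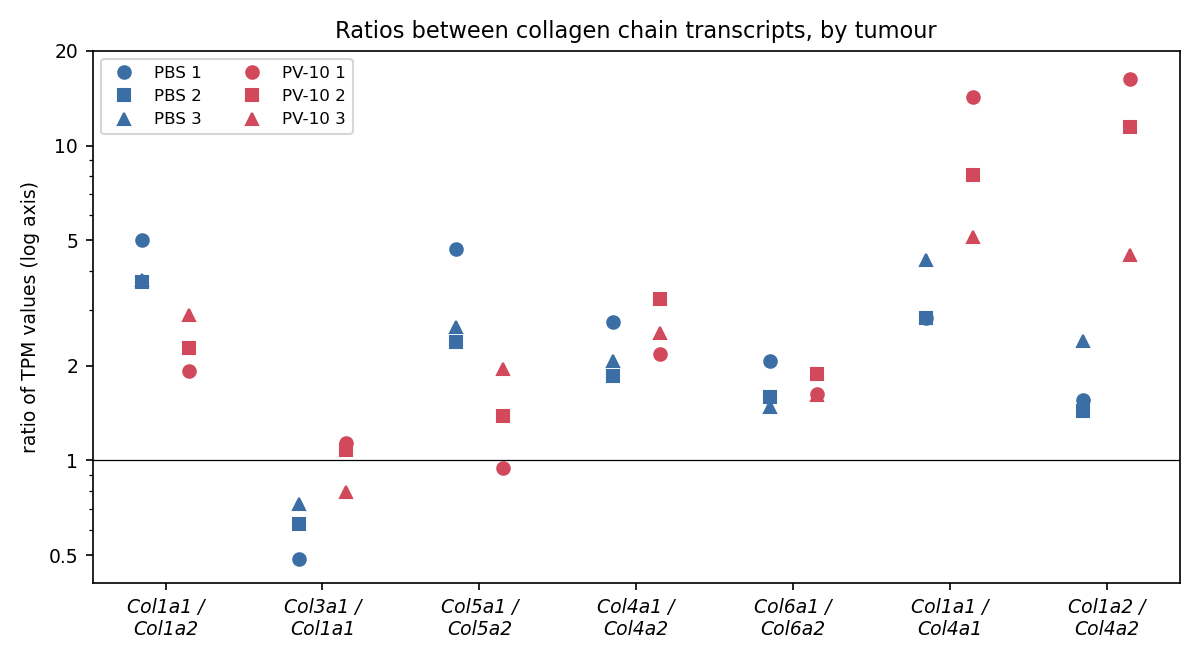
Ratio of the TPM values of 2 collagen genes (log axis) in each of the 3 PBS (blue) and 3 PV-10 (red) tumours. The ratios Col1a1 to Col4a1 and Col1a2 to Col4a2 are higher in every PV-10 tumour than in any PBS tumour, Col1a1 to Col1a2 and Col5a1 to Col5a2 are lower, and Col4a1 to Col4a2 and Col6a1 to Col6a2 overlap.

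Transcript length and GC content moved with the log2 changes and differ between these genes. Over the 24 collagen genes with a mean of at least 1 TPM, which share the same 6 libraries, the log2 change had a Pearson r of -0.47 and a Spearman rho of -0.40 with GC content, and r was -0.14 with log2 length. Over the 10967 tested genes that were at least as abundant, r was -0.29 with GC content and -0.52 with log2 length. The median length was 6453.5 bases over the 24 collagen genes and 3525 bases over those 10967 genes. Per library, the slope of log2 CPM on 10 points of GC content was 0.15 to 0.23 in the PBS tumours and 0.17 in PV-10 tumour 3, but -0.43 and -0.32 in PV-10 tumours 1 and 2. The slope on log2 length separated the groups. It was 0.113, 0.130 and 0.071 in PBS tumours 1, 2 and 3, and -0.154, -0.082 and -0.077 in PV-10 tumours 1, 2 and 3.

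Of the 24 collagen genes with a mean of at least 1 TPM, 6 had a positive log2 change in the count test. By GC content they were Col8a1 (46.8%), Col11a1 (48.0%), Col5a2 (49.6%), Col14a1 (49.7%), Col3a1 (52.5%) and Col1a2 (55.7%). All but Col14a1 were negative on log2(TPM + 1). Col12a1 (48.3%, log2 change -0.21) and Col28a1 (49.6%, -1.87) were also low in GC but negative. The median GC content was 55.4% over the 24 and 48.6% over all genes tested. The 5 type IV genes ranged from 50.4% (Col4a3, log2 change -1.64) to 60.6% GC (Col4a2, -1.94). After a trend with length and GC content was taken out of the counts, the median log2 change was -1.46 over the type IV genes, 0.13 over the fibrillar genes and -0.30 over all genes tested. In that fit edgeR called 0 collagen genes and 0.00907% of all genes; 15 collagen genes had an unadjusted p under 0.05, beside 25.3% of all genes, among them all 5 tested type IV genes and none of the fibrillar genes.

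**Figure D5:**
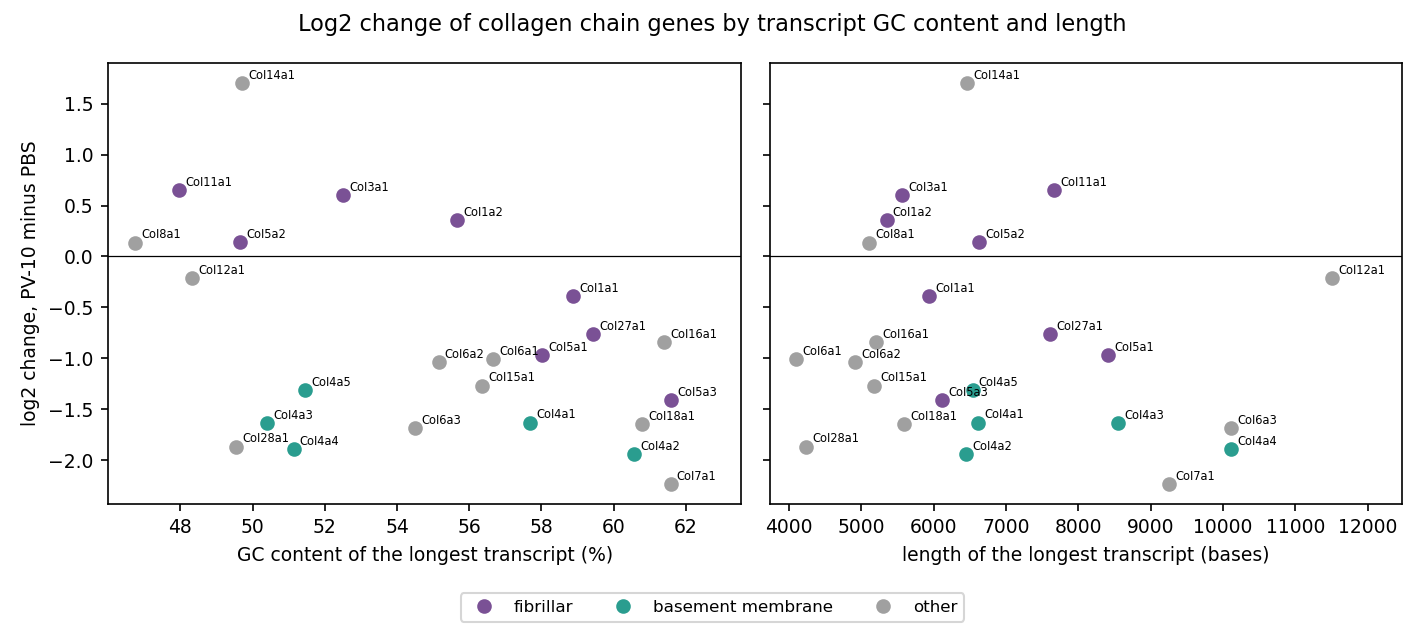
Log2 change of PV-10 over PBS (edgeR count test) against the GC content (left, %) and the length (right, bases) of the longest transcript, for the 24 collagen chain genes with a mean of at least 1 TPM. Of the low-GC genes, Col14a1 and Col11a1 lie above 0 in the count test (Col11a1 below 0 in TPM), and Col12a1 and Col28a1 below 0. The type IV genes lie between -1.94 and -1.31, at 50.4% to 60.6% GC.

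Newly made chains are hydroxylated and glycosylated in the endoplasmic reticulum before they fold. Beside the lists from here on, 30.0% of all genes tested had an unadjusted p under 0.05, 14.5% as lower. Of all genes, edgeR called 5.09% (1.92% lower, 3.17% higher). DESeq2 called 29.6% (8.41% lower, 21.2% higher) and limma-voom 9.14% (5.35% lower, 3.79% higher). Of 15 genes for prolyl and lysyl hydroxylation and glycosylation, edgeR called 0, with a median log2 change of -0.33; 6 had an unadjusted p under 0.05, DESeq2 called 5 and limma-voom 0. The most abundant were the prolyl isomerase gene Ppib, at 102, 145 and 128 TPM in PBS and 116, 107 and 148 TPM in PV-10, and P4hb, the disulfide isomerase that is also the beta subunit of prolyl 4-hydroxylase, at 92.0, 106 and 93.5 TPM in PBS and 82.7, 81.3 and 89.1 TPM in PV-10. In TPM the groups overlapped for Ppib, and P4hb was slightly lower in each PV-10 tumour than in any PBS tumour. In the count test P4hb had a log2 change of 0.36 (edgeR adjusted p = 0.362; -0.20 on log2(TPM + 1)). Ppib had a log2 change of 0.78 (SE 0.24) that edgeR did not call (adjusted p = 0.072) and DESeq2 did (0.89, adjusted p = 0.00025), and it was -0.02 on log2(TPM + 1).

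Folding, export and trimming follow. Of 14 genes for procollagen folding and export, 1 was called: Mia3, which encodes the cargo receptor TANGO1 that loads procollagen into large carriers. Mia3 was at 33.4, 45.6 and 39.3 TPM in PBS and at 9.51, 5.15 and 16.2 TPM in PV-10 (log2 change -1.27, SE 0.31, edgeR adjusted p = 0.0492), with no overlap. Of 8 genes for propeptide cleavage, 1 was called: Adamts14, a procollagen N-proteinase, at 8.09, 14.4 and 19.0 TPM in PBS and 1.75, 2.75 and 4.33 TPM in PV-10 (log2 change -1.47, SE 0.33, edgeR adjusted p = 0.0451). Here too every PV-10 tumour was below every PBS tumour.

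Of the 5 lysyl oxidase genes, which crosslink the finished fibril, edgeR called 0, with a median log2 change of -0.65; 1 had an unadjusted p under 0.05, and DESeq2 and limma-voom called 0. Loxl3, the most abundant, was at 34.6, 45.1 and 35.9 TPM in PBS and at 9.42, 11.3 and 23.6 TPM in PV-10, and Loxl2 at 10.4, 27.5 and 15.6 TPM in PBS and 4.79, 3.13 and 11.6 TPM in PV-10. Of 10 collagen receptor genes edgeR called 0, with a median of -0.38; 3 had an unadjusted p under 0.05, DESeq2 called 3 and limma-voom 0. The integrin beta1 gene Itgb1 was at 169, 294 and 223 TPM in PBS and at 51.4, 72.5 and 122 TPM in PV-10, and the inhibitory leukocyte receptor gene Lair1 at 9.57, 5.82 and 7.04 TPM in PBS and 8.46, 11.8 and 17.2 TPM in PV-10. Itgb1 separated the groups in TPM and Lair1 did not.

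Small proteoglycans and other regulators of fibril assembly had a median log2 change of 1.26 over 13 genes in the count test, with 3 called, all higher. Aspn (asporin, which binds type I collagen) was at 2.93, 4.29 and 2.04 TPM in PBS and at 16.6, 7.50 and 6.36 TPM in PV-10 (log2 change 2.63, SE 0.50, edgeR adjusted p = 0.0443). Dpt (dermatopontin, a binder of decorin) was at 1.5, 1.73 and 3.07 TPM in PBS and at 6.66, 6.52 and 2.87 TPM in PV-10 (log2 change 2.25, edgeR adjusted p = 0.0443). Omd (osteomodulin) was at 0.44, 0.52 and 0.37 TPM in PBS and at 1.32, 2.92 and 0.77 TPM in PV-10 (log2 change 2.77, edgeR adjusted p = 0.0451). Aspn and Omd were higher in each PV-10 tumour than in any PBS tumour, while for Dpt PV-10 tumour 3 was just below PBS tumour 3 in TPM. The list's direction depended on the scale. In CPM 7 of the 13 genes were higher in PV-10 with no overlap, beside 22.0% of all genes tested. In TPM 2 of them were, beside 9.58%. The list's median log2 change was 0.43 once the length and GC trend was taken out.

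The partners of type IV collagen in the basement membrane included 5 genes called lower and 1 called higher among 19, with a median log2 change of -0.93. Hspg2, which encodes perlecan, was at 55.4, 157 and 111 TPM in PBS and at 12.5, 8.84 and 30.8 TPM in PV-10 (log2 change -2.06, SE 0.36, edgeR adjusted p = 0.0443). Lamc1, the laminin gamma1 gene, was at 51.0, 128 and 111 TPM in PBS and at 9.21, 10.9 and 30.9 TPM in PV-10 (log2 change -2.02, SE 0.40, edgeR adjusted p = 0.0443). For both genes every PV-10 tumour was below every PBS tumour, with PV-10 tumour 3 the nearest to PBS, as for Col4a1 and Col4a2. The laminin genes Lama5 (log2 change -1.74) and Lamb1 (-1.64) fell as well, at edgeR adjusted p = 0.0466 and 0.047. The called higher gene was Frem2, which is listed at 0 TPM in the 3 PBS tumours and at 0.27, 0.35 and 0.02 TPM in PV-10. A gene at that PBS level can pass the low-count filter only through PV-10 tumours, so the direction of this call was fixed by the filter.

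Markers of the cells that make collagen did not move as one. Of 15 fibroblast markers, 3 of which (Dcn, Lum and Dpt) are also fibril regulators, 1 was called, Dpt, named above, and the list's median log2 change was 0.87, or 0.04 with the length and GC trend taken out. Its summed level was 1691 to 1848 TPM in PBS and 1692 to 2941 TPM in PV-10, most of it S100a4, which other cells also make. Of the 15, 9 had a positive and 6 a negative log2 change; 9 had an unadjusted p under 0.05 (7 higher, 2 lower), DESeq2 called 9 (7 higher, 2 lower) and limma-voom 4 (2 in each direction). Of 9 pericyte and smooth muscle markers edgeR called 0, with 3 at an unadjusted p under 0.05, 3 called by DESeq2 and 1 by limma-voom. The summed level of that list was 18.2 to 40.3 TPM in PBS and 28.4 to 48.7 TPM in PV-10. Beside these marker counts and those below, 30.0% of all genes tested had an unadjusted p under 0.05. DESeq2 called 29.6% of all genes and limma-voom 9.14%.

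Endothelial cells are a main source of type IV collagen, and the summed TPM of their markers overlapped between the groups. Of 11 endothelial markers edgeR called 0, with a median log2 change of -0.45. In that count test 7 were negative and 4 positive, so they did not share a direction there. An unadjusted p under 0.05 was found for 1, and DESeq2 and limma-voom called 0. On log2(TPM + 1) all 11 were negative, with a median of -1.03 beside -0.21 over all genes tested. With the length and GC trend taken out 10 were negative, with a median of -0.65 beside -0.30. Without PV-10 tumour 3 edgeR called 6, all lower, beside 16.4% of all genes called lower. The summed level of the endothelial markers was 54.1, 166 and 134 TPM in PBS and 33.0, 22.9 and 98.8 TPM in PV-10. Cdh5, the cadherin of endothelial junctions, was at 19.0, 58.4 and 44.5 TPM in PBS and at 7.35, 4.51 and 27.6 TPM in PV-10. PBS tumour 1 was thus low, and PV-10 tumour 3 the highest of its group, in the summed endothelial markers as in the summed type IV genes. The place of PBS tumour 1 was not particular to type IV, since it was the lowest PBS tumour in 23 of the 24 collagen genes with a mean of at least 1 TPM. PV-10 tumour 3 was the highest of its group in 12 of those 24. For Col4a5 it was not, with 0.46 TPM against 0.67 in PV-10 tumour 2. The part of vessel content in the type IV result was not tested.

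The cell line comes from epithelium, but RNA of the whole tumour does not show which cells made a transcript. The keratin gene Krt8 was at 155, 129 and 164 TPM in PBS and at 36.2, 42.1 and 91.7 TPM in PV-10. Epcam, another epithelial marker, did not pass 0.54 TPM in any tumour. Of the 10 epithelial markers 9 were tested and edgeR called 0, with 1 at an unadjusted p under 0.05, 1 called by DESeq2 and 0 by limma-voom. In the count test 7 of the 9 had a positive log2 change, with a median of 0.89. The summed level, nearly all of it Krt8, Krt18 and Krt19, was 349 to 424 TPM in PBS and 155 to 298 TPM in PV-10, without overlap. The part of epithelial content in the collagen results was not tested either.

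Tendon, muscle and cartilage markers were checked because several of the low collagen genes are known from those tissues. Of 9 tendon and muscle markers 1 was called, Tnmd (tenomodulin), which is listed at 0 TPM in the 3 PBS tumours and at 5.77, 0.93 and 0.10 TPM in PV-10. As for Frem2, the low-count filter fixed the direction of that call. Of the 9, 8 had a positive log2 change, with a median of 1.93; 5 had an unadjusted p under 0.05 and DESeq2 called 3, all higher, and limma-voom called 1. The summed level of that list was 8.73 to 16.6 TPM in PBS and 9.52 to 48.2 TPM in PV-10, highest in PV-10 tumour 2. Of 9 cartilage and bone markers 8 were tested and edgeR called 0, with 3 at an unadjusted p under 0.05 and 2 called by DESeq2 and by limma-voom each. Nearly all of that list's level was Sox9 (131, 144 and 114 TPM in PBS, 9.10, 17.4 and 53.8 TPM in PV-10) and Runx2 (83.2, 89.0 and 64.7 against 4.03, 4.22 and 34.9 TPM). Both are transcription factors that cells outside cartilage and bone also use, and Col2a1 and Col10a1 were near 0 in the same tumours.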

How the data were processed

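RNA of 3 PBS and 3 PV-10 tumours was sequenced as strand-specific libraries from 100 ng of total RNA with 100-base read pairs, per the labels' protocols. Per the labels' protocols and the submitters' processing notes, the authors' tools were cutadapt 1.8.1 for adapters, STAR 2.7.7a for alignment on mm10, and RSEM 1.3.0 on Gencode M21, which made the deposited gene-level counts; whether counting used strand is not given in the sources used here. The deposited TPM table is the authors' second table of the same genes and tumours, scaled by gene length and library size; the sources used here do not name the step that made it.

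The counts as deposited were tested with edgeR 4.0.16 in R 4.3.3 (TMM scaling, default low-count filter, robust quasi-likelihood F test, no covariate, Benjamini-Hochberg adjustment over all genes tested). CPM values are on TMM-scaled library sizes. The SE of a log2 change is its size divided by the square root of F. The length and GC trend was fitted per library on the longest Gencode M21 transcript with splines of 5 degrees of freedom and entered as an offset. The procedure was tested on simulated data first. Alternatives used DESeq2 1.42.0, limma 3.58.1 (voom, and log2 TPM with a pseudocount of 1 or 0.1), other filters and scalings, protein-coding genes alone, a replicate block, and each tumour left out. The start sequence comes from RefSeq's GRCm38.p6 table.

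The collagen genes, the classes, the gene lists and the tests were chosen with earlier results of these data known. Collagen genes with values in every tumour include those called, the 15 with the highest mean TPM, the type IV and main type VI chains and the 3 with the largest log2 change at each end; the rest are accounted for by their range. In each list of collagen pathway genes up to 4 called genes, or the 2 most abundant of a list with none, are named, and 1 called gene is not reported here; Frem2, Cdh5, Krt8, Epcam, S100a4, Tnmd, Sox9 and Runx2 were chosen after their values were seen. The labels number the tumours within each group. The deviations from the group means of tumours with the same number correlated at -0.049 to 0.072. Those of tumours with different numbers correlated at -0.113 to 0.080. Such values cannot show whether the numbers pair the tumours, and no pairing was used in the main test.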

Additional observations from a re-analysis of the deposited data

How the results depend on the processing

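Collagen calls changed with most settings, and the type IV direction with none of those run. All genes called and collagen genes called, beside 1122 and 5 as reported, were 4664 and 17 without a low-count filter (2 fibrillar, 5 type IV, 10 other), 2705 and 8 with a mean of at least 50 counts (5 other), 2537 and 9 with DESeq2 size factors (6 other), 2441 and 9 with library size alone (6 other) and 2805 and 9 among protein-coding genes (6 other). DESeq2 called 8160 and 18 (2 fibrillar, 4 type IV, 12 other), and limma-voom 2016 and 7. On log2(TPM + 1) the counts were 4037 and 12 (2 fibrillar, 7 other), on log2(TPM + 0.1) 3998 and 10 (1 fibrillar, 6 other). On log2(TPM + 1) with no filter they were 3 and 0, and with the length and GC trend removed 2 and 0, so 0 type IV and 0 other genes. Genes called as higher made up 62.3% of all calls as reported, 40.1% with library size alone and 6.22% on log2(TPM + 1).

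With each tumour left out in turn, 1 to 11399 genes were called in all, with 0 to 18 collagen genes, 0 to 2 fibrillar, 0 to 3 type IV and 0 to 13 other; the highest value of each came without PV-10 tumour 3. The median log2 change then ranged from -0.54 to 0.065 over collagen genes, -0.49 to 0.13 over fibrillar, -1.99 to -1.36 over type IV and -0.43 to 0.22 over other genes, and the difference in fibrillar share from 12.9 to 18.3 points. On log2(TPM + 0.1) the medians were -0.77 over collagen genes, -0.56 over fibrillar and -2.46 over type IV genes; the fibrillar median was -0.45 on log2(TPM + 1), with and without the filter. Without Col1a1, Col1a2 and Col3a1 the share differed by 2.56 points, at a mean of 8.34% in PBS and 10.9% in PV-10. The causes were not tested.

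With the replicate number as a block, 2872 genes were called, 10 of them collagen genes (1 fibrillar, 4 type IV, 5 other). The numbers share no stated origin, and the correlations cannot show whether they pair the tumours. Depth limits the collagen genes near 0 counts, such as Col9a2 and Col4a6, which were not tested.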
